A study of Mus musculus with 2 samples.

Results

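Olfactory receptor genes were covered by 864 tiled regions on a pair of mouse promoter arrays that measured Ring1B binding in embryonic stem (ES) cells. A region was the set of array probes carrying 1 receptor name, Olfr followed by a number, either alone or as one side of a hyphen-joined name that marks a promoter shared by diverging genes. The arrays held 884 such names, and the 864 with at least 3 probes made up 5.10% of all 16939 regions formed in the same way. Array 1 held 426 of them and array 2 held 438. The 20 names left out had 1 probe in 11 cases and 2 probes in 9 cases. Names with 2 probes ran from -1.37 to 0.65 as log2 ratios and the 8 regions with 3 probes from -2.17 to 0.42, so single values near this minimum were widely spread. A receptor region held a median of 25 probes over a median span of 6758 bp, and 762 of the 864 held at least 10 probes.

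Ring1B was immunoprecipitated with a monoclonal antibody from formaldehyde-fixed, sonicated chromatin of mouse ES cells, the pluripotent cells of the early embryo grown in culture. After amplification by linker-mediated PCR, the precipitated (IP) DNA was labelled with Cy5 and the input DNA with Cy3, in the same orientation on both arrays. The labels name no strain, genotype or treatment. Titles and protocols name ES cells whereas the source names begin with the word "Muscle", and the titles were followed here. Cell identity could not be checked against markers, since the arrays measure DNA and not RNA. The arrays are the slides of 1 set and shared 0 probes, so each region was measured on 1 array. No mock precipitation, dye swap or replicate was analysed here, and no difference below carries a test. The SD given with a region is the spread over its probes, which lie next to each other on 1 array and are not replicates.

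Olfactory receptors are G-protein-coupled receptors of the nasal sensory neurons, and they form the largest gene family of the mouse. Most lie in clusters of neighbouring paralogs spread over many chromosomes, in AT-rich DNA with few CpG dinucleotides, and each mature sensory neuron expresses a single allele of a single receptor while the other receptor genes are held in heterochromatin. Ring1B (Rnf2) is the catalytic subunit of Polycomb repressive complex 1, which places ubiquitin on histone H2A and in ES cells is known to sit mainly at CpG islands of developmental regulators. Receptor genes are silent in ES cells too, but they are not among the textbook Polycomb targets.

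Each probe value was log2 of the Cy5 over the Cy3 processed signal minus the median probe of its array, so that 0 is the level of the median probe and 1 is 2-fold above it. Where a spot did not rise above background, the scanner software had replaced its signal with a surrogate, a floor value. A probe with a surrogate in both channels has no measured ratio and lies close to 0. A measured probe here is one with no surrogate in either channel.

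The probes of the receptor region with the highest mean are shown first, because they are the whole evidence for the single value past the 2-fold mark. Olfr888 on chromosome 9 had 4 probes. Letters are on the forward strand as the array files give them, and capitals mark the CpG dinucleotide.
Olfr888 probe at chr9:38032883-38032942: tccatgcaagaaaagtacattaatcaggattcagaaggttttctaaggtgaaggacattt
Olfr888 probe at chr9:38037978-38038037: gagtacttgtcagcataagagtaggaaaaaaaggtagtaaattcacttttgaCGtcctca
Olfr888 probe at chr9:38038155-38038214: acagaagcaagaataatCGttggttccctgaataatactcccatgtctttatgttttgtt
Olfr888 probe at chr9:38038262-38038321: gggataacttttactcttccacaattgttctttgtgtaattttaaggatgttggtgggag
The first had surrogates in both channels and a log2 ratio of 0.12. The second, also with surrogates in both channels, read 0.07. At the third, the input intensity was 87.6 and the IP intensity 427, for a log2 ratio of 2.12, and this was the only fully measured probe of the region. The fourth paired an IP intensity of 277 with an input surrogate of 60.5, for a log2 ratio of 2.03. Both high probes lay side by side, with a floor probe next to them and the other floor probe further upstream. The mean of the region was 1.09 (SD 1.15), and it fell under 1 with loess within the array (0.64), normexp background correction (0.31) and the deposited log2 table (0.37). It stayed above 1 without centring (1.25), relative to the GC class (1.02) and as the median of its probes (1.08).

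At the other end, Olfr538 on chromosome 7 had the lowest mean of all receptor regions, and its 3 probes are shown for that reason.
Olfr538 probe at chr7:136986031-136986084: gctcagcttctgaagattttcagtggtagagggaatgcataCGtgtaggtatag
Olfr538 probe at chr7:136991244-136991303: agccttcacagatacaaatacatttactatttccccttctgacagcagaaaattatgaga
Olfr538 probe at chr7:136993244-136993303: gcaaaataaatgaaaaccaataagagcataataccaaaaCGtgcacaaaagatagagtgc
The outer upstream probe was measured in both channels and read -0.12. The probe nearest to the start had an input intensity of 1015 and an IP surrogate of 104, which gave -3.52. The downstream probe had an input intensity of 546 and an IP surrogate of 87.1, which gave -2.88. The low mean of Olfr538 thus came from probes whose IP signal was at the floor while their input was bright.

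Olfr462 on chromosome 11 was the lowest region with at least 10 probes. Its 3 lowest probes are shown.
Olfr462 probe at chr11:87957380-87957439: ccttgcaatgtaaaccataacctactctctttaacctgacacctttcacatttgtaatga
Olfr462 probe at chr11:87957581-87957640: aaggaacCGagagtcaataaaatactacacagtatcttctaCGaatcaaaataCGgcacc
Olfr462 probe at chr11:87958332-87958391: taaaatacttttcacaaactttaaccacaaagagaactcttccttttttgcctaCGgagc
These read -4.93, -5.43 and -5.45 in this order, with input intensities of 6298, 2411 and 2539. Their IP intensities were 232 and surrogates of 62.7 and 64.8. Olfr461 on chromosome 6 had the longest run of high probes among the receptors. The 3 highest probes of its region are shown, the first of which lies just outside that run.
Olfr461 probe at chr6:40473998-40474049: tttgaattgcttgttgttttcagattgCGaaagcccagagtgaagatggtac
Olfr461 probe at chr6:40474104-40474161: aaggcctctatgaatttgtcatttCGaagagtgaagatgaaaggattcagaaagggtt
Olfr461 probe at chr6:40475040-40475099: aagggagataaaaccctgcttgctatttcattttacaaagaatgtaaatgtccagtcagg
These read 2.41, 2.38 and 2.47, with IP intensities of 1266, 946 and 422 over input intensities of 204, 155 and a surrogate of 64.9. The probes shown here hold between 0 and 3 CpG each.

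Promoter windows from RefSeq, build GRCm38.p6, give the wider sequence around the start: 250 bases before it and 50 after it. Of the 884 receptor names, 725 were in that table. Printed 5′ to 3′ on the gene's strand are the windows of the receptors just described, of the class I receptor Olfr544 and of Olfr1509, which neighbours the H enhancer cluster. The window of Lhx2 is added as that of a region high in these data. Capitals mark CpG, TAATTA (the core bound by homeodomain factors such as Lhx2) and TATAAA on either strand.
Olfr888 window at chr9:38108438-38108737: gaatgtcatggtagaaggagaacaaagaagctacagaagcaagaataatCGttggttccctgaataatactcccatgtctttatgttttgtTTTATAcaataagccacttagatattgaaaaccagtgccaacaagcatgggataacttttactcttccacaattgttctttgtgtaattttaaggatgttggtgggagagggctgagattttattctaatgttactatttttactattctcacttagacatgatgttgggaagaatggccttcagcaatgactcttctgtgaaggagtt
Olfr461 window at chr6:40544928-40545227: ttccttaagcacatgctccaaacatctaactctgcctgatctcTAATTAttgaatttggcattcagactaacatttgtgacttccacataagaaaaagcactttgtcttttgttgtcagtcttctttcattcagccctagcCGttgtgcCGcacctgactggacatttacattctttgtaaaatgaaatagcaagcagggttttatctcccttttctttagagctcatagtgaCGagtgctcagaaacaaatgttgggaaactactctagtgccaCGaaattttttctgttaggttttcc
Olfr462 window at chr11:87889845-87890144: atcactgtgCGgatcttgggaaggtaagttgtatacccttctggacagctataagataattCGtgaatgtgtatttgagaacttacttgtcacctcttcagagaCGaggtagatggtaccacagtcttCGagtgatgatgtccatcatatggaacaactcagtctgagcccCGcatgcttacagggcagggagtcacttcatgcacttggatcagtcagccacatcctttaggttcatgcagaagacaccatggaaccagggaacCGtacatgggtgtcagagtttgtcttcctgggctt
Olfr538 window at chr7:140573905-140574204: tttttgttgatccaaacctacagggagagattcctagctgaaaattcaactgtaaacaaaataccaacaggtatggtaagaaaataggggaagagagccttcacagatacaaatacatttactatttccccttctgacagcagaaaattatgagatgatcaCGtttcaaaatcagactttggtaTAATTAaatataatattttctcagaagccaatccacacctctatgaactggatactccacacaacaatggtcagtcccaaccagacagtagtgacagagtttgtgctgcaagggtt
Olfr544 window at chr7:102488258-102488557: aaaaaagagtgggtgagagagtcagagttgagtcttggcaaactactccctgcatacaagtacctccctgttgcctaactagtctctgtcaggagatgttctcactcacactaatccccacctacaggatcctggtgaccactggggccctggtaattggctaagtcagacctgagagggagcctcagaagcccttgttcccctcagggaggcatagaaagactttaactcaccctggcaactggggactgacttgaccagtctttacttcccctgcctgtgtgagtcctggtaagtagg
Olfr1509 window at chr14:52450143-52450442: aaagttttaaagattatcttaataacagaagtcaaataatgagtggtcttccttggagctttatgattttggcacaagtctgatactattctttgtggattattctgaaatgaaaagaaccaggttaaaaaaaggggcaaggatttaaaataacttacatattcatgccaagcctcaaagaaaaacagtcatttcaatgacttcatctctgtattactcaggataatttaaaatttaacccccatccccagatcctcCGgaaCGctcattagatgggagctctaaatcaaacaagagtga
Lhx2 window at chr2:38351058-38351357: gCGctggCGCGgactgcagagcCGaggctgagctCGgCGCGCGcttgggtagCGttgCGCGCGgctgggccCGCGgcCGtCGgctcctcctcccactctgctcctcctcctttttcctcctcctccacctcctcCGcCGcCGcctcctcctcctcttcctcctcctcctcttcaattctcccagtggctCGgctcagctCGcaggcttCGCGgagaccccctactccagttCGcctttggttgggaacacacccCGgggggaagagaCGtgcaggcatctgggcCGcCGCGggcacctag
The Olfr888 window held 1 CpG at 36.3% GC, that of Olfr462 held 6 at 47.3%, that of Olfr544 held 0 at 51.7%, and that of Lhx2 held 29 at 69.3%. TAATTA was present in the windows of Olfr461 and Olfr538, at 1 place in each. Both high probes of Olfr888 lay inside its window, centred 188 and 81 bp before the start. The Olfr538 probe at -3.52 was centred 125 bp before the start, and the Olfr461 probe at 2.47 was centred 67 bp before it. In the Olfr1509 window both probes, centred 171 and 32 bp before the start, had surrogates in both channels and read -0.01 and -0.03. The windows of Olfr888, Olfr461, Olfr538 and Olfr1509, all between 34.3% and 39% GC, held probes at opposite ends of the scale and probes with no measured ratio.

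Over the family, 947 receptor windows had a median of 1 CpG and 35% GC, against 7 CpG and 52.7% GC over all 32851 windows. At least 10 CpG were found in 0.211% of the receptor windows and in 43.5% of all. TAATTA was found in 18.6% of receptor windows and in 5.29% of all, and TATAAA, searched on both strands, in 41.1% and 13.6%. The palindrome CCCNNGGG, the core of sites bound by the Ebf (Olf-1) factors, was found in 3.06% and 13.7%. These are letter matches and not binding sites. The windows compared differ in GC content, and no background matched for it was computed. In 72.3% of the receptor windows the annotated start was itself an ATG, against 5.83% of all windows, so for most receptors the annotated start is the start codon and 5′ exons further upstream are not marked by it.

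Array probes that lie whole within their own gene's RefSeq window could be found by sequence for 527 receptors, 738 probes in all. Of these, 48.6% had surrogates in both channels, against 4.0% of the 12212 such probes of other genes. The median log2 ratio was -0.21 (SD 1.62) over the 252 measured ones, and the 11138 of other genes had a median of -0.03 (SD 1.29). At least 1 was reached by 19.4% of the measured receptor probes and 19.7% of the others, and at most -1 by 29.8% and 18.5%. None of the 738 had the same coordinate in the array files as in GRCm38.p6. The sources used here do not name the genome build behind the array files, and coordinates of array probes and regions are those of the files.

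Receptor regions were narrowly spread around the median probe and almost never reached the 2-fold mark. Their median log2 ratio was -0.11 (SD 0.33 over 864 regions), and that of the other 16075 regions was -0.10 (SD 0.46). A mean of at least 1 was found for 1 receptor region, or 0.116%, where 2.00% of all regions reached it. A mean of at most -1 was found for 13, or 1.5%, where 1.87% of all regions did. The order of these low shares turned with the scaling: receptors had the larger share with loess (2.66%, against 1.69% of all), normexp (1.39% against 0.366%), the deposited log2 table (0.81% against 0.307%) and without centring (1.04% against 0.75%). At the milder mark of 0.5, 13 receptor regions were at or above it (1.5%, against 7.63% of all), and 101 were at or below -0.5 (11.7%, against 15.5% of all). Within 0.25 of the median probe on either side lay 61.2% of the receptor regions and 46.1% of the others.

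**Figure D1:**
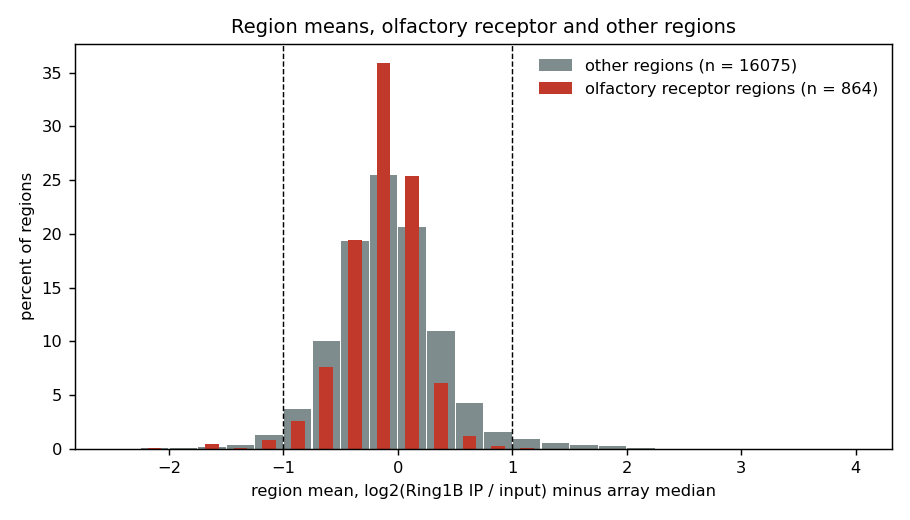
Percent of regions (vertical axis) by region mean of log2(Ring1B IP / input) minus the array median (horizontal axis, bins of 0.25), for 864 olfactory receptor regions (red) and 16075 other regions (grey), with dashed lines at -1 and 1. Receptor regions pile up near 0, with 1 region at or above 1, while the grey distribution has a tail beyond 1.

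On array 1 the receptor median was -0.11, with 0 regions past the upper mark of 1 and 8 (1.88%) past the lower mark of -1. Of all regions on array 1, 1.63% and 1.97% lay past these marks. On array 2 the receptor median was -0.12, with 1 (0.228%) and 5 (1.14%) past them, beside 2.36% and 1.77% of all its regions. The number of probes mattered for the extremes. Among the 102 receptor regions with 3 to 9 probes, 1 reached the upper mark and 7 the lower. Of 537 other regions of that size, 22 and 69 did. Among the 762 receptor regions with at least 10 probes these counts were 0 and 6 (0.787%). Of all regions with at least 10 probes, 1.93% and 1.48% reached these marks. Of the 263 receptor regions with at least 30 probes, 0 lay beyond either mark. Among the 7292 other regions of that size, 247 reached 1 and 50 reached -1. The count of 1 was small under every scaling tried, while the family median shifted with the scaling. Normexp background correction gave 0 receptor regions past the upper mark and 12 past the lower, and it moved the receptor median to -0.33 while the median of all regions rose by 0.11. Over all regions that scaling split the calls into 447 high and 62 low, in place of 338 and 317. Without centring the split was 507 high and 127 low, with 3 and 9 receptors and all regions 0.20 higher. In the deposited table of log2 values it was 433 and 52, with 0 and 7 receptors and all regions 0.11 higher.

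A large share of the receptor probes carried no measured ratio, which limits what these means can show. Of 19923 receptor probes, 49.5% had surrogates in both channels, against 15.5% of the 454299 other probes. The share was 52.9% on array 1 and 46.0% on array 2 for receptors, and 16.7% and 14.2% for the rest. Such probes read a median of 0.01 with an SD of 0.06, so they hold a region's mean near 0. In 484 of the 864 regions at least 50% of the probes were of this kind, and in 27 regions no probe was measured in both channels. The 107 receptor regions with under 25% of such probes had a median of -0.21 (SD 0.49), and the 104 with 75% or more had a median of -0.02 (SD 0.18). The spread was smaller in the second set, and the count of regions at or below -1 was 7 in the first and 0 in the second. Over all regions, whatever their floor share, 1.87% reached -1. Other regions were not split by floor share, so these counts have no matched yardstick. Olfr888 lay between these sets, with 50% of its probes at the floor.

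The dim signal was a property of both channels. Median processed intensity over all receptor probes was 72.1 in the input channel and 87.4 in the IP channel, and over other probes it was 321 and 391. An input signal with an IP surrogate was found in 7.61% of receptor probes and 3.96% of others. The reverse, an IP signal with an input surrogate, was found in 8.59% and 7.72%. Probes with only the input measured read a median of -0.84, and those with only the IP measured read 0.83, both being bounds set by the floor of the other channel.

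The share of floor probes fell with rising GC content, and receptor probes differed from other probes within GC classes as well. Receptor probes had a median GC content of 36.7%, against 40.7% for other probes. In the class from 35% to 40% GC, which holds 9645 receptor probes, 46.1% had surrogates in both channels, against 24.3% of 158473 other probes. From 30% to 35% GC the shares were 68.4% and 46.2%, and from 40% to 45% GC they were 15.7% and 6.58%. Above 50% GC, where only 203 receptor probes fell in the class up to 55%, the share was 0% and 0.257%. Why receptor probes were dimmer than others of the same GC class was not tested.

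**Figure D2:**
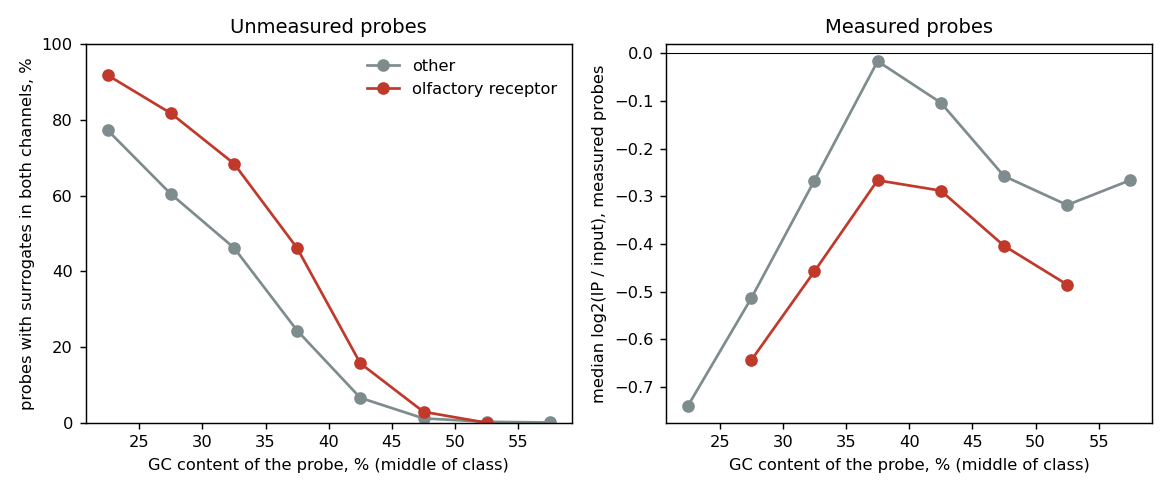
Left, percent of probes with surrogates in both channels by GC content of the probe (classes of 5 percentage points), for olfactory receptor probes (red) and other probes (grey). Right, median log2(IP / input) of measured probes in the same classes, for classes with at least 50 of them. The red share lies above the grey one from 20% to 50% GC, and the red median lies below the grey one in each class drawn for both.

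Probes of other genes that lie inside receptor clusters had floor shares nearer to those of probes elsewhere than to those of the receptors. At 35% to 40% GC, 25.9% of the 1550 such probes had surrogates in both channels, close to the 24.3% of other probes outside clusters and below the 46.1% of the receptors. Their measured probes had a median of -0.06 in that class, against -0.02 outside clusters and -0.27 for receptors. From 40% to 45% GC their median was -0.22, against -0.10 outside clusters and -0.29 for receptors, so there they lay nearer to the receptors. A total of 146 non-receptor regions lay wholly inside the clusters. They had a median of -0.09, and 0 of them reached 1 (2.00% of all regions) while 5 reached -1 (3.42%, against 1.87% of all). The nearest to the mark were AI451617 at 0.99 on 3 probes and Lalba, the milk protein alpha-lactalbumin, at 0.93 on 32 probes.

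Where both channels were measured, receptor probes read lower than other probes. The median log2 ratio was -0.35 (SD 1.51) over the 6835 measured receptor probes, and the 331035 others had a median of -0.14 (SD 1.5). Below 0 lay 60.2% of the receptor probes and 54.2% of the others. At least 1 was reached by 17.0% of receptor probes and 22.2% of the others, and at most -1 by 29.2% and 26.0%. The receptor median was the lower one in all 6 settings computed, with differences from -0.45 to -0.20. By GC class it was -0.27 against -0.02 at 35% to 40% and -0.49 against -0.32 at 50% to 55%.

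Intensities of the 2 channels differed between low and high probes. The 1996 measured receptor probes at or below -1 had a median input intensity of 1196 and a median IP intensity of 256. The 3678 probes between the marks had 238 and 263. The 1161 probes at or above 1 had 115 and 472. The classes are cut on the ratio of these channels, so a difference between them in at least 1 channel is there by construction. For low receptor probes it lay in the input channel, which was brighter than between the marks at a like IP intensity. The low probes of other genes had 1777 and 466, against 628 and 705 between the marks, so they were brighter in the input and dimmer in the IP channel. The part of this brightness in the low ratios was not tested.

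Averaging only measured probes widened the receptor distribution and shifted it down. With at least 3 measured probes, 735 receptor regions remained, with a median of -0.40 (SD 0.65), against -0.20 (SD 0.55) for 15936 other regions. At least 1 was reached by 7 receptor regions, or 0.952%, beside 2.71% of all regions so treated. At most -1 was reached by 124, or 16.9%, beside 5.72% of all. With at least 10 measured probes, 278 receptor regions were left, of which 0 reached 1 and 33 reached -1 (11.9%), while 14373 other regions had 400 and 601 (4.18%). The highest of the receptor regions with at least 5 measured probes were Olfr174 at 1.15 (SD 0.96, 7 probes) and Olfr1145 at 1.10 (SD 0.95, 6 probes). The lowest were Olfr807 at -2.77 (SD 1.15, 6 probes) and Olfr506 at -2.27 (SD 0.92, 5 probes). Low receptor regions were the more numerous, and their share among the receptors exceeded that among all regions. Only 34.3% of receptor probes were measured, against 72.9% of others. The regions compared were not matched for their number of measured probes, and means of few probes spread more widely.

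Around the start, the rise of measured probes at other genes was not seen at the receptors on array 1, whose file gives each probe's distance. Measured probes of other genes rose from a mean of -0.39 in the window from -5500 to -5000 bp, counted from the start, to 0.01 (SD 1.30, 17588 probes) in the first 500 bp after it. Measured receptor probes read -0.29 (SD 1.39, 126 probes) and -0.46 (SD 1.57, 384 probes) in the same windows. Over all windows the receptor mean stayed between -0.56 and -0.29. In RefSeq the annotated start was an ATG in 72.3% of receptor promoter windows, against 3.86% of other ones. The start used here may thus often be the start codon of the receptor. Mean GC also differed in the first 500 bp after it, at 40.6% for receptor probes and 51.2% for others. Whether either bears on the missing rise was not tested.

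The share of floor probes changed along the receptor genes. Their share was 50.4% from -5500 to -5000 bp, 62.1% at 1000 to 500 bp before it and 58.0% in the last 500 bp before it. It fell to 22.2% in the first 500 bp after the start and 29.5% in the next 500 bp, and returned to 61.8% from 1000 to 1500 bp. The coding region of a receptor is typically a single exon of about this length. Probes placed inside genes by the files' annotation had surrogates in both channels in 22.3% of 2185 receptor cases and 12.8% of other cases. The floor share was 52.2% in receptor promoters and 55.7% downstream of receptors. Measured receptor probes had a median of -0.25 inside genes, -0.35 in promoters and -0.42 downstream, in the reverse order of the floor shares. Coding exons of receptor paralogs can be alike, and whether the probes are unique in the genome was not tested, so a value given to 1 receptor may hold signal from its paralogs. At other genes the floor share fell smoothly toward the start, from 22.2% to 4.99%.

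**Figure D3:**
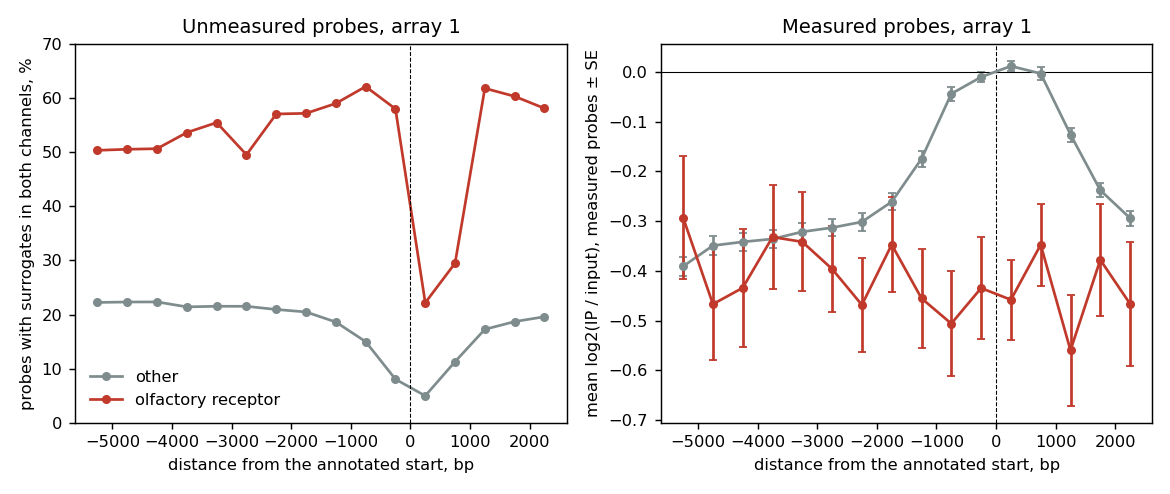
Array 1 only, in windows of 500 bp from the annotated start (horizontal axis, bp), which at many receptors may be the start codon. Left, percent of probes with surrogates in both channels. Right, mean log2(IP / input) of measured probes with its standard error over probes, which share regions and are not independent. Grey other genes rise to 0.01 at the start, and red receptors stay between -0.56 and -0.29, while the red floor share dips to 22.2% just after the start.

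CpG content separated measured probes of other genes more than it did receptor probes. No CpG was present in 78.9% of receptor probes and in 56.3% of others. Without CpG, the measured medians were -0.35 for receptors and -0.28 for the others. With 2 or more CpG they were -0.21 (SD 1.63, 264 probes) and 0.14 (SD 1.42, 63783 probes). Only 2.58% of receptor probes held 2 or more CpG, against 16.1% of the others.

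Receptor regions lay on 17 chromosomes, of which chromosome 7 held 176, chromosome 2 held 139 and chromosome 9 held 126. Among the 15 chromosomes with at least 5 receptor regions, the receptor median was below that of the other regions on 9. With measured probes only, the receptor median was the lower one on 15 of 15, with differences from -0.49 on chromosome 16 to -0.0016 on chromosome 13. The share of floor probes was higher for receptors on 15 of 15. Chromosome 4 had the lowest receptor median, -0.29 (SD 0.38, 25 regions), beside -0.17 for its 969 other regions. Chromosome 9 had the highest among those with over 10 regions, -0.06 (SD 0.30, 126 regions), equal at this precision to the -0.06 of its other regions.

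**Figure D4:**
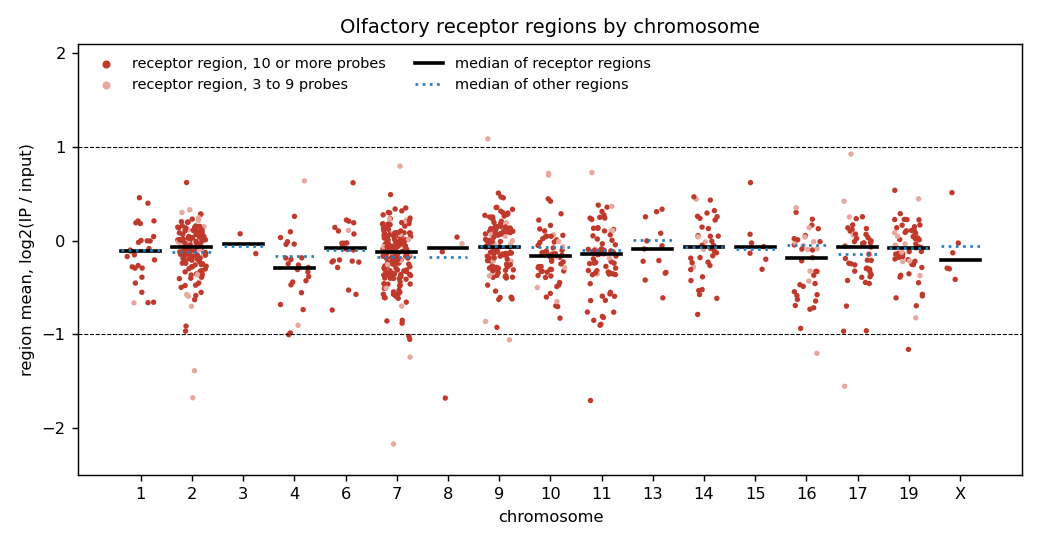
Mean log2(IP / input) of each olfactory receptor region (points, dark for 10 or more probes, pale for 3 to 9) by chromosome, with the median of the receptor regions (black bar) and of the other regions of that chromosome (blue dotted bar), and dashed lines at -1 and 1. The single point above 1 is Olfr888 on chromosome 9, and the lowest point is Olfr538 on chromosome 7.

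Regions within 1 Mb of each other formed 48 clusters, 10 of them of a single name. The 21 clusters with at least 10 regions all had medians below 0, from -0.41 to -0.04. The lowest was the chromosome 4 cluster from Olfr62 to Olfr1328 (14 regions, SD 0.43), in which 16.8% of probes were at the floor, the lowest share among the 21. The highest was the chromosome 9 cluster from Olfr151 to Olfr986 (97 regions, SD 0.32), with 50.3% of probes at the floor. The largest by regions, also of 97, lay on chromosome 2 from Olfr996 to Olfr1274 and had a median of -0.05 (SD 0.27) with 67.0% of probes at the floor. On chromosome 2, the cluster from Olfr1275 to Olfr1318 had the largest floor share among the 21, 72.7%, and a median of -0.14 (SD 0.19, 19 regions). The chromosome 7 cluster from Olfr543 to Olfr691 holds the class I receptors, the branch related to receptors of fish. Its 77 regions had a median of -0.13 (SD 0.28), 51.7% of its probes were at the floor and its 639 measured probes had a median of -0.42. Measured probes had a median below 0 in 20 of the 21 clusters. The exception was the chromosome 13 cluster from Olfr1370 to Olfr1360, at 0.04 over 159 measured probes.

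The highest receptor regions with at least 10 probes were all under 2-fold above the median probe. Olfr1204, Olfr257 and Olfr461 each had a mean of 0.62, with SDs of 0.86 over 14 probes, 1.37 over 15 and 0.98 over 22. The other seven of the 10 highest, Olfr1419, Olfr1323, Olfr984, Olfr711, Olfr747, Olfr955 and Olfr432, ran from 0.54 down to 0.46. In Olfr1204 (chr2:88690502-88697472), 9 of the 14 probes had surrogates in both channels and 2 were fully measured. In Olfr461 (chr6:40472631-40476619) 10 of 22 were measured, with a mean of 0.77. In Olfr257 (chr15:98296504-98300120) 12 of 15 were measured and single probes ran from -2.37 to 2.01. Each of these means was smaller than the SD over the probes of its region.

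The lowest regions reached further from 0. Olfr462 (chr11:87957380-87962906) had a mean of -1.71 (SD 2.15, 21 probes), or 3.26-fold below the median probe, and its probes ran from -5.45 to 1.37. Olfr374 (chr8:70628269-70634236) had a mean of -1.68 (SD 1.73, 21 probes), with 16 measured probes and a GC content of 44.1%. Olfr76 (chr19:11799943-11806155) had a mean of -1.16 (SD 1.60, 23 probes), which became -0.86 with normexp, -0.85 in the deposited table and -0.73 as the median of its probes. Olfr538, Olfr462, Olfr374, Olfr3 and Olfr92 stayed at or below -1 in each of the 5 other scalings. Of the remaining 7 of the 10 lowest, Olfr1347, Olfr506 and Olfr1337 lay between -1.05 and -1.0, and Olfr156, Olfr113, Olfr338 and Olfr97 between -0.99 and -0.96. In all 10 the lowest single probe was at -3.65 or below, and the highest was above 0. The low regions with few probes included Olfr3 at -1.68 (SD 1.33, 6 probes) and Olfr92 at -1.56 (SD 0.83, 3 probes). Olfr92 is the one among the lowest whose 3 probes were all measured, and they are shown.
Olfr92 probe at chr17:35261734-35261793: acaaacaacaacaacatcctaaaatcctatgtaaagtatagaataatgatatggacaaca
Olfr92 probe at chr17:35262113-35262168: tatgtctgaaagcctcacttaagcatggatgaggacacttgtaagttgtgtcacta
Olfr92 probe at chr17:35266080-35266139: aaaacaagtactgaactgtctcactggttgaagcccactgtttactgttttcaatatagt
They read -0.60, -2.03 and -2.03, with input intensities of 103, 2162 and 3403 and IP intensities of 75.8, 590 and 929.

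By chromosome, the extremes not yet named were mostly regions of few probes. Olfr108 on chromosome 17 was the second highest receptor region, at 0.92 (SD 1.08, 7 probes), and 5 of its probes were measured. Olfr46 on chromosome 7 read 0.80 (SD 0.98, 9 probes), Olfr331 on chromosome 11 read 0.73 (SD 0.89, 4 probes) and Olfr814 on chromosome 10 read 0.72 (SD 1.24, 7 probes). Among the low ones, Olfr169 on chromosome 16 read -1.20 (SD 2.09, 7 probes), where 5 probes were at the floor in both channels and 1 probe read -5.01. Olfr899 on chromosome 9 read -1.06 (SD 1.63, 7 probes), and Olfr807 on chromosome 10 read -0.83 (SD 1.62, 27 probes). Olfr169 and Olfr814 each had 1 measured probe, and in Olfr814 it read 2.22 while a probe with a surrogate in 1 channel read 2.80.

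Long stretches of high probes were not found at receptors. A run was taken as consecutive probes whose running mean, over 500 bp to either side, was at least 1. Runs of at least 2000 bp touched 0 of the 864 receptor regions, where they touched 3.03% of all regions, 514 in number. With the sign turned, runs of at least 2000 bp touched 5 receptor regions, or 0.579%, where they touched 0.986% of all. At 1000 bp or more the counts were 3 receptor regions for high runs (0.347%, against 8.24% of all) and 49 for low runs (5.67%, against 10.3% of all). High runs were rarer at receptors than over all regions at both lengths, and low runs were also below the share of all regions. Floor probes, more common at receptors, lie near 0 and hold running means of either sign near 0. Without probes with surrogates in both channels, high runs of at least 2000 bp touched 0 receptor regions, against 3.21% of all. Low runs then touched 6 (0.694%, against 1.22% of all). With normexp the order of low runs of at least 2000 bp turned, with 2 receptor regions (0.231%) against 0.124% of all.

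The longest high run of a receptor lay in Olfr461 and covered 1430 bp (chr6:40474104-40475533), with 8 probes and a mean of 1.20. Its probes at 0.12 and 0.09 had surrogates in both channels, and those at 2.47, 0.51 and 2.01 had an input surrogate. The mean of this run thus rests in part on floor values. The next longest high runs covered 1088 bp in Olfr314 on chromosome 11 (5 probes, mean 1.4) and 1008 bp in Olfr94 on chromosome 17 (6 probes, mean 1.05). Olfr314 as a whole had a mean of -0.46 (SD 1.68, 42 probes), so its run stood among lower probes. The longest low run covered 3100 bp (chr7:98806613-98809712), with 15 probes and a mean of -1.54, and spanned the adjoining regions Olfr560 and Olfr78. Next was a run of 2426 bp in Olfr374 (chr8:70628269-70630694), with 12 probes and a mean of -2.45. Lower runs of 2116 bp in Olfr521 and 2059 bp in Olfr96 had means of -1.77 and -1.38. In Olfr560 itself 8 of 15 probes were at the floor and 6 were measured, with a mean of -1.91 (SD 2.21).

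**Figure D5:**
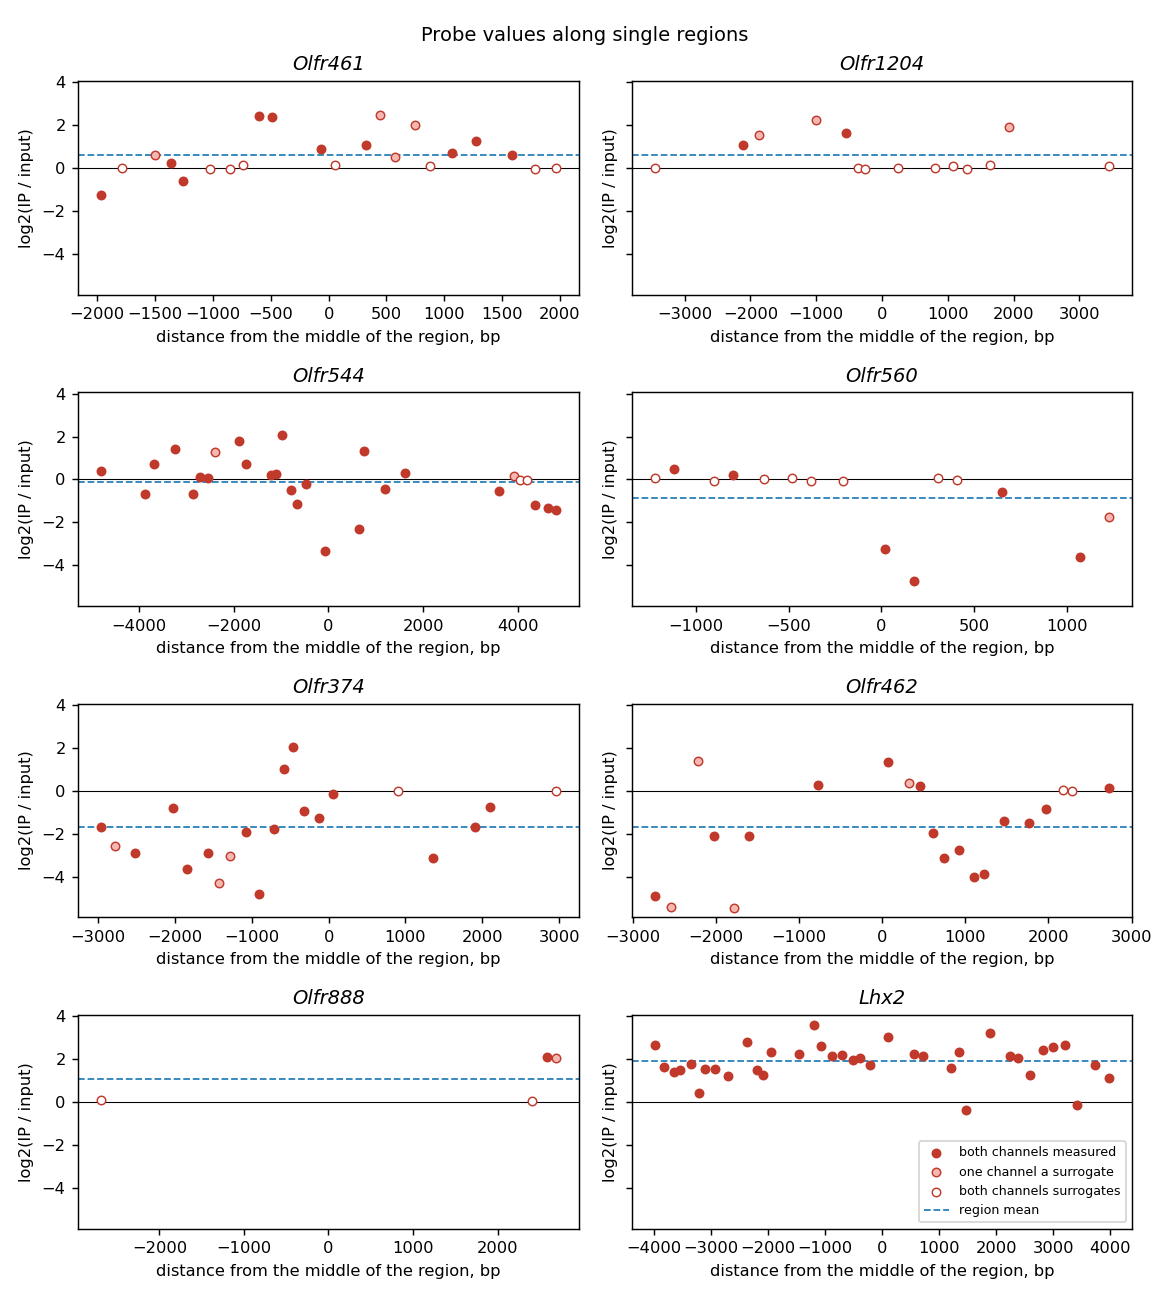
Log2(IP / input) of each probe (points) against its distance from the middle of its region (bp) in 7 olfactory receptor regions and in Lhx2, filled for probes measured in both channels, pale for 1 surrogate and open for 2, with the region mean as a dashed blue line. Open points lie at 0, filled points of Olfr462 and Olfr374 reach below -4, and the Lhx2 points lie around a mean of 1.90.

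Well-studied receptors lay within the family's range. Of 13 fixed by name, 9 had a region here, and Olfr17, Olfr73, Olfr160 and Olfr1507 were not analysed here. Olfr2, the I7 receptor for octanal, read -0.41 (SD 0.84, 19 probes). Olfr16, also known as MOR23, read -0.29 (SD 1.16, 37 probes). Olfr151, the M71 receptor, read -0.05 (SD 1.10, 28 probes) with 16 probes at the floor. Olfr78, which is also expressed in the carotid body, read -0.86 (SD 1.68, 10 probes) and shares the low run with Olfr560. Olfr544, the class I receptor for azelaic acid, was one of the best measured, with 24 of 28 probes measured at a mean GC content of 44.0%. Its mean was -0.10 (SD 1.19), and its neighbour Olfr545 read -0.32 (SD 0.94, 19 probes). Olfr1508 and Olfr1509, which lie near the H enhancer on chromosome 14, read -0.19 (SD 1.29, 18 probes) and -0.31 (SD 1.29, 29 probes). Olfr124 read 0.13 (SD 0.86, 49 probes), with 33 probes at the floor. All 9 had means smaller than the SD over their probes.

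Neighbouring measured probes carried related values in receptors as elsewhere. For probes whose centres were up to 150 bp apart, Pearson's r between neighbours was 0.56 over 1189 receptor pairs and 0.56 over 91800 other pairs. From 150 to 250 bp it was 0.37 and 0.41, and from 250 to 400 bp it was 0.14 and 0.22. The pairs share the sheared DNA fragments and the array, and are given as a description.

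In 39 hyphen-joined names at least one side was a receptor. In 30 of them both sides were, and the shared probes had a median log2 ratio of -0.26 over names. The other 9 joined a receptor to another kind of gene, with a median of -0.11. Shared probes of AW551984 and Olfr148 read 0.32 (SD 1.03, 33 probes), those of Ifi202b and Olfr433 read -0.34 (SD 0.85, 36 probes), and those of Olfr98 with H2-M3, a class I histocompatibility gene, read -0.27 (SD 1.4, 20 probes). None of the 9 reached 1 or -1.

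Other chemoreceptor families had medians near the median probe and floor shares as large as the olfactory receptors, trace amine receptors excepted. Vomeronasal receptors (V1r and V2r), which serve pheromone detection, had a median of -0.09 over 111 regions, with 0 at or above 1, 2 at or below -1 and 50.4% of probes at the floor, beside 2.00% and 1.87% of all regions past these marks. Their median became -0.36 with normexp, -0.29 in the deposited table and 0.12 without centring. Without probes with surrogates in both channels 2 and 11 of 101 regions lay past the marks, beside 2.58% and 4.02% of all regions so treated. Taste receptors had a median of -0.12 over 36 regions, with 0 and 0 beyond the marks and 51.2% at the floor. The taste receptor median became -0.34 with normexp and 0.11 without centring. The trace amine receptors (Taar) of the nose had a median of -0.16 over 15 regions with 34.3% at the floor. The 6 formyl peptide receptor regions (Fpr) had a median of 0.25, which turned to -0.10 with normexp, -0.01 with loess and -0.04 in the deposited table, and 51.1% of their probes were at the floor. Their highest was Fpr-rs2 at 0.53 on 20 probes.

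Genes that act with olfactory receptors were read on the same arrays. Of 13 listed genes of odorant signalling and receptor transport, 12 had regions, with a median of -0.19 and 0 beyond either mark. That median lay at 0.01 without centring and as the median of the probes. Gnal, the olfactory G-protein alpha subunit, read 0.69 (SD 1.83, 63 probes), with a high run of 3456 bp at a mean of 2.11. Slc24a4, an ion exchanger of sensory neurons, read 0.63 (SD 1.61, 33 probes), with a run of 1237 bp at a mean of 2.08. Adcy3, the adenylyl cyclase that Gnal activates, read -0.20 (SD 1.42, 35 probes). Cnga2, the channel subunit opened by cyclic AMP, read -0.37 (SD 1.34, 31 probes), and Omp, the marker protein of mature sensory neurons, read -0.65 (SD 1.57, 37 probes). Rtp1 and Rtp2, which carry receptors to the cell surface, read -0.32 and -0.12.

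Regulators of sensory neurons and of receptor choice were high. Of 15 listed, 13 had regions, with a median of 1.19, and 8 were at or above 1, beside 2.00% of all regions, and 0 at or below -1. The count was 8 under each of the 5 other scalings too. Lhx2, the LIM-homeodomain factor of receptor enhancers, read 1.90 (SD 0.82, 37 probes) with a run of 4603 bp, and its floor share was 0%. Ebf2 read 1.85 (SD 1.20, 46 probes) with a run of 6982 bp, Ebf3 read 1.79 (SD 0.97, 45 probes) and Ebf1 read 1.41 (SD 1.39, 37 probes). Emx2 and Neurog1, factors of neural and olfactory progenitors, read 1.46 and 1.19. Below the mark were Neurod1 at 0.44, Ldb1 (the cofactor of Lhx2) at 0.17, Kdm1a at 0.14, Ebf4 at -0.01 and Atf5 at -0.06. Such developmental factors are known Polycomb targets in ES cells, and the list was chosen with earlier results of these data known. Their values show what a region at or above 1 looked like on the same arrays.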

How the data were processed

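The samples are a pair of 2-colour Agilent mouse promoter tiling arrays, slides 1 and 2 of a set, hybridised with DNA of mouse ES cells, Ring1B IP in the Cy5 channel and input in the Cy3 channel. Per the file headers, the authors quantified the scans in version 9.1.3.1 of Agilent Feature Extraction. The deposited intensity values are processed signals, background-subtracted and scaled per dye, with surrogates for dim spots. The deposited series table holds log2 ratios that equal log2 of the red over the green mean signal of each spot, to within 5.0e-05, not centred.

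Control spots and 141 and 17 outlier spots were left out, leaving 237054 and 237168 probes. Log2 of red over green was centred on each array's median probe (0.23 and 0.16 before centring), without loess or quantile normalization in the main setting. A region is the mean over the probes of 1 gene name on 1 array. Normexp (offset 50) and loess alternatives used limma 3.58.1 in R 4.3.3, and the rest Python 3.11.15 with pandas 2.3.3. The region and run steps were tested on simulated shifts, put on regions of at least 20 probes with independent noise. That simulation held no floor probes and no relation between neighbours. It therefore cannot show how well a bound receptor region would be found. With 1 array per probe there is no test and no p-value, and precision is limited by the number of arrays.

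The members and gene lists were chosen with earlier results of these data known. Named regions are the 10 highest and lowest with at least 10 probes, all at or above 1, the 3 lowest, 13 receptors fixed by name, the 3 longest runs each way, the extremes of each chromosome with at least 10 regions, and the fixed lists. Olfr3, Olfr92, the extremes by measured probes, the genes inside clusters and the hyphen-joined names were chosen after their values were seen. No genome build of the arrays is named in the sources used here. Some members of the regulator list are not reported here by name.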

Additional observations from a re-analysis of the deposited data

How the results depend on the processing

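The share of high receptor regions was below that of all regions in 15 of 15 settings. The share at or below -1 was above that of all regions in 8 of 15, so its order depends on the processing. The lower level of measured receptor probes held in 6 of 6 settings, and the family median moved with the scaling and the treatment of floor probes. Receptor regions had the lower median in 12 of 13 settings, with differences from other regions of -0.36 to 0.01, the exception being the median of the probes. The 1 array per probe and the 49.5% of receptor probes with no measured ratio limit every value.

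The receptor median of -0.11 became -0.33 with normexp, -0.24 with loess, 0.091 without centring, -0.27 in the deposited log2 table, -0.28 without probes with surrogates in both channels and -0.40 without any surrogate. Summarised by the median of its probes it became 0.0013, and on array 1 it became -0.049 for 367 regions cut to the 1000 bp around the start. The count of regions at or above 1 became 0 with normexp, loess, the deposited table, at least 10 probes, at least 20 probes and the mark of 1.5. It became 3 without centring (0.347%, against 2.99% of all) and 3 without probes with surrogates in both channels (0.374% against 2.58%). Without any surrogate it became 7 (0.952% against 2.71%), and within 1000 bp of the start 2 (0.545% against 7.12%). At the mark of 0.5 it was 13 (1.5% against 7.63%). The count at or below -1 became 23 with loess (2.66%, against 1.69% of all), 7 in the deposited table (0.81% against 0.307%), 97 without both surrogates (12.1% against 4.02%) and 124 without either (16.9% against 5.72%). It became 6 and 3 under minimums of 10 and 20 probes (0.787% against 1.48%, and 0.52% against 1.15%) and 31 for the 1000 bp around the start (8.45% against 6.24%). Marks of 1.5 and 0.5 gave 5 (0.579% against 0.242%) and 101 (11.7% against 15.5%). Chromosomes with a lower receptor median became 15 of 15 with normexp and the deposited table, and 14 with loess and without both or either surrogate. The median of measured probes became -0.058 with normexp, -0.51 with loess, -0.15 without centring and -0.066 in the deposited table. A surrogate in either channel was found in 65.7% of receptor probes. High runs of at least 1000 bp touched 3 receptor regions (0.347%, against 8.24% of all). The causes were not tested, except that fewer probes or a different mark change the counts by construction. Olfr888 and Olfr76 crossed the mark under scalings added after their values were seen. No paired analysis was possible because each region was measured on 1 array.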
